A study of Mus musculus with 7 samples.

Results

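Neurexins, neuroligins and the scaffolds beneath them join the sending and the receiving side of a synapse. The genes described here are the neurexin genes Nrxn2 and Nrxn3, the neuroligin genes Nlgn1, Nlgn2 and Nlgn3, and the scaffold genes Dlg4, Shank1, Shank2 and Shank3. They were chosen by name with earlier results of these data known, and all 9 are listed among the 21937 genes of the authors' deposited table. The libraries came from A2lox mouse embryonic stem cells of the 129/Ola background carrying a doxycycline-inducible NeuroD1 transgene. The 2 induced libraries were from cells given doxycycline at 500 ng/ml for 48 h, and the 2 uninduced libraries were from the same kind of cell without the drug. Feeder fibroblasts had been removed by passaging on gelatin, and polyadenylated RNA was sequenced. Cells given doxycycline but lacking the transgene were not part of the comparison, so drug and transgene cannot be told apart, and the labels do not say whether the 2 libraries of a group were separate cultures.

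Neurexins are presynaptic membrane proteins whose extracellular domains bind neuroligins on the receiving cell. Inside that cell the neuroligin tail is held by PSD-95, the product of Dlg4, and Shank proteins form the deeper layer that links PSD-95 complexes to Homer and actin. Nlgn1 is known mainly from excitatory synapses, Nlgn2 from inhibitory synapses and Nlgn3 from both. NeuroD1, the induced factor, is a basic helix-loop-helix protein that binds E-boxes, short DNA words of the form CANNTG.

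Of these 9 genes 6 rose after induction, 0 fell and 3 did not pass the authors' DESeq test at an adjusted p of 0.05 in the authors' deposited table. Both neurexin genes rose, as did Nlgn1, Nlgn2, Dlg4 and Shank2, while Nlgn3, Shank1 and Shank3 did not pass. Over the 18283 genes with a p-value 35.5% passed in either direction, 19.1% upward and 16.4% downward. A mean of 10 or more normalized reads over both groups was reached by 14388 genes, 8 of the 9 among them, and 23.8% of these genes rose. The median log2 change, computed with a pseudocount of 1, was 0.61 for those 8 genes and 0.75 for all 9, against 0.0018 for the 14388 genes. The values that follow are the authors' mean normalized read counts per group. They carry no spread, because the 4 columns of single-library values have names that match no sample label and were not used here. The depth of each library is therefore not given. Over all 21937 genes the means summed to 1.74e+07 in induced and 1.73e+07 in uninduced cells.

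**Figure D1:**
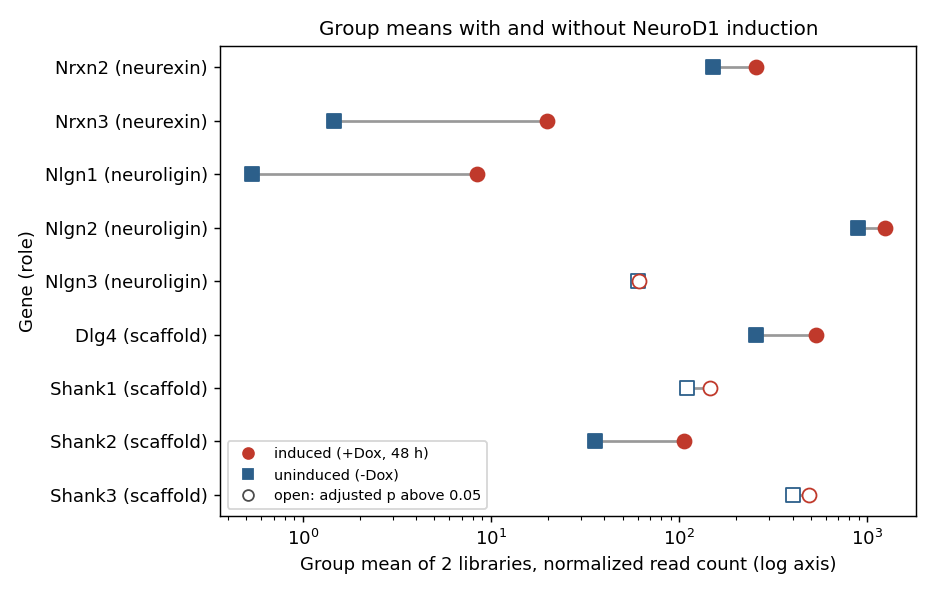
Group means of the normalized read count (log axis) for each gene, with circles for induced and squares for uninduced cells, and open symbols where the adjusted p was above 0.05. The means run from 8.37 (Nlgn1) to 1237 (Nlgn2) in induced cells and from 0.537 to 896 in uninduced cells. No error bars are drawn because the deposited means carry none.

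Promoter windows are shown because the factor that was induced binds E-boxes. RefSeq promoter sequences of build GRCm38.p6 were matched by symbol for 5 of the 9 genes (Nrxn3, Nlgn1, Nlgn2, Dlg4 and Shank3), with 10 annotated starts among them. Nrxn2, Nlgn3, Shank1 and Shank2 had no entry. The windows below hold the 250 bases before a start, 5′ to 3′ on the gene's strand, with every match to CANNTG in capitals. They are the E-box-bearing starts of genes that rose, together with an Nlgn1 start and the Shank3 start, in which no match was found. The upstream Nrxn3 start, the downstream Nlgn1 start and the other Dlg4 starts also held no match and are not printed.
Nrxn3 downstream start (chr12:89812233-89812482, + strand): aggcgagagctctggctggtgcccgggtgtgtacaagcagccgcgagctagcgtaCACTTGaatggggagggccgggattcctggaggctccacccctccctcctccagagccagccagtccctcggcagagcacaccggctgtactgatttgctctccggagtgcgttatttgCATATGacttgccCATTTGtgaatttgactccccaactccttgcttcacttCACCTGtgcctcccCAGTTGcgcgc
Nrxn3 middle start (chr12:88953140-88953389, + strand): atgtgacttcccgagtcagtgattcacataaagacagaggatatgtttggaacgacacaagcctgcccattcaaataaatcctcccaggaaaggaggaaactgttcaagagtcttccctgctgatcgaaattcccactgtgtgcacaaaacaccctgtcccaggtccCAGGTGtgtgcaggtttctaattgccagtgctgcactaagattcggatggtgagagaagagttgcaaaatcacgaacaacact
Nlgn2 (chr11:69837785-69838034, - strand): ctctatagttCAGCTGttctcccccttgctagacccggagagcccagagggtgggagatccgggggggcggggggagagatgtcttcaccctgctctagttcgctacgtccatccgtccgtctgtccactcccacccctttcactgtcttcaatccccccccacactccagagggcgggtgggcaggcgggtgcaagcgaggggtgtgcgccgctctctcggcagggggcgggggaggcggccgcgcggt
Dlg4 upstream start (chr11:70016953-70017202, + strand): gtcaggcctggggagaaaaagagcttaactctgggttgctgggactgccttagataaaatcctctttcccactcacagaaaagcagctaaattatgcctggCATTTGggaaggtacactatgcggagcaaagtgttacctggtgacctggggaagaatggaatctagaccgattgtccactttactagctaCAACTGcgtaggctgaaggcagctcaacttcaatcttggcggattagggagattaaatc
Nlgn1 upstream start (chr3:26331910-26332159, - strand): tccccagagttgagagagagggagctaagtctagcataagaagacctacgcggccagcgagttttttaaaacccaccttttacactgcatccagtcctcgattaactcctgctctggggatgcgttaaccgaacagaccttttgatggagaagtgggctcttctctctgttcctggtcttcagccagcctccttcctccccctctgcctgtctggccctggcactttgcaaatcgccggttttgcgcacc
Shank3 (chr15:89499358-89499607, + strand): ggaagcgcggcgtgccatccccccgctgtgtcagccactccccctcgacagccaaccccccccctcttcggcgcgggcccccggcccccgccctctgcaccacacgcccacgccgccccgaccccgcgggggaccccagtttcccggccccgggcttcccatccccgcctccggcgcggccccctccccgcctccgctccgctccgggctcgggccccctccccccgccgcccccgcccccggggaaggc

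The word CANNTG reads the same class on either strand, so each match was counted once. It occurred 9 times in the 10 windows, in 4 windows and at none of the other 6. Of 32851 RefSeq promoter windows of the same length 66.2% held at least 1 match. The downstream Nrxn3 start held 5 matches, a number reached by 1.15% of all windows. They begin at -195, -76, -63, -25 and -11 from the start, and the one at -76 is CATATG, a word found in 3.46% of windows. The middle Nrxn3 start held a single CAGGTG at -83, the Nlgn2 window a single CAGCTG at -240, and the upstream Dlg4 start CATTTG at -149 and CAACTG at -59. The word CAGATG, searched on both strands, was in none of the 10 windows and in 14.4% of all windows. The Shank3 window was the richest in G and C at 82.4%, against a median of 52.4% over all windows. Matches describe these letters only, and no binding data were analysed here.

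Nrxn2 and Nrxn3 encode the presynaptic partners. Nrxn2 averaged 255 normalized reads in induced cells and 151 in uninduced cells in the authors' deposited table. That is a 1.68-fold rise, a log2 change of 0.75 (DESeq adjusted p = 0.00012). Nrxn3 averaged 19.9 normalized reads in induced cells, against 1.47 in uninduced cells, in the authors' deposited table. Its 13.6-fold rise (adjusted p = 0.00041, the authors' deposited table) started from under 2 normalized reads, and with the pseudocount the log2 change is 3.08 in place of the authors' 3.76. On the authors' log2 scale, with no pseudocount, the Nrxn3 change lay at the 96.4 percentile of all tested genes and the Nrxn2 change at the 83.5 percentile. Of the pair, the gene with the larger fold was the one with almost no reads in uninduced cells.

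Neuroligin genes, the postsynaptic side of the bridge, spanned the whole range of levels. Nlgn2, which encodes the neuroligin of inhibitory synapses, was already abundant, with 1237 normalized reads in induced cells and 896 in uninduced cells in the authors' deposited table. Its rise of 1.38-fold was the smallest that passed among the 9 (log2 change 0.47, DESeq adjusted p = 1.4e-05). Nlgn1, the neuroligin of excitatory synapses, stood at the other end of the range. It had a mean of 8.37 normalized reads in induced cells and 0.537 in uninduced cells, and it passed narrowly with an adjusted p of 0.037 in the authors' deposited table. The 15.6-fold ratio rests on an uninduced mean below 1 normalized read, and the log2 change was 2.61 with the pseudocount, against 3.96 without. Nlgn3 had means of 60.9 in induced and 60.2 in uninduced cells, 1.01-fold (adjusted p = 1, the authors' deposited table). Whether the neuroligin genes differ from one another in their response was not tested.

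Dlg4 encodes PSD-95, the main scaffold of the excitatory postsynaptic density, and had the smallest adjusted p of the 9 genes. It averaged 535 normalized reads in induced cells and 255 in uninduced cells, a 2.10-fold rise in the authors' deposited table (log2 change 1.07, DESeq adjusted p = 1.2e-13). Shank2 averaged 106 in induced cells and 35.8 in uninduced cells, a 2.97-fold rise by the authors' deposited table (log2 change 1.57, adjusted p = 3.9e-06). The other Shank genes gave smaller ratios. Shank1 had means of 146 in induced and 110 in uninduced cells, 1.33-fold (adjusted p = 0.23), and Shank3 had 488 in induced and 402 in uninduced cells, 1.22-fold (adjusted p = 0.083), in the authors' deposited table. The unadjusted DESeq p of Shank3 was 0.032 in the authors' deposited table, but the threshold was set on the adjusted p, which Shank3 missed. Nlgn1, with a DESeq adjusted p of 0.037 in the authors' deposited table, lay inside the threshold. A p that misses the threshold does not show that Shank1, Shank3 or Nlgn3 stayed the same.

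**Figure D2:**
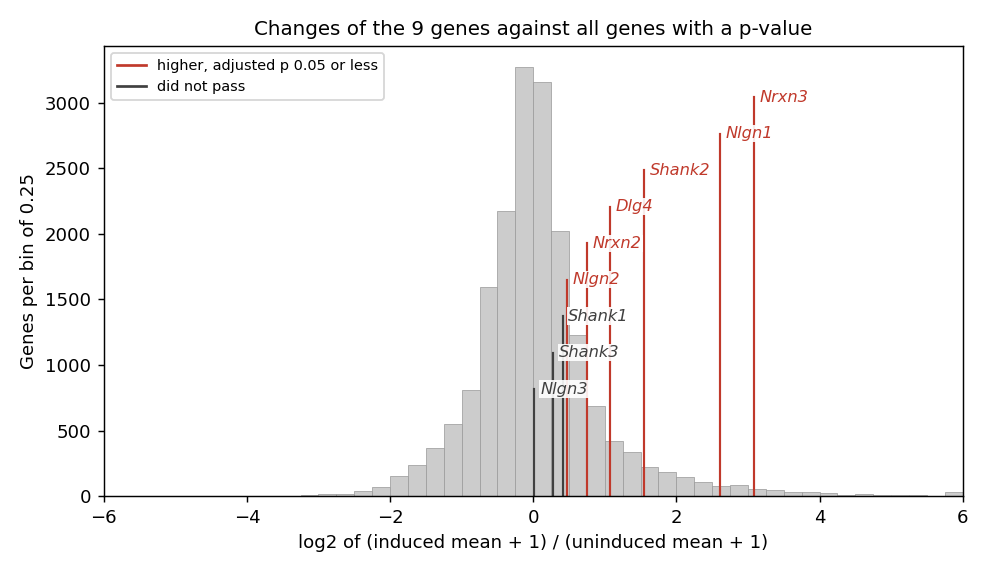
Grey bars count all 18283 genes with a p-value by their log2 change with a pseudocount of 1, in bins of 0.25, with changes beyond 6 placed in the end bins. Vertical lines mark the 9 genes (their heights carry no value), from Nlgn3 at 0.018 to Nrxn3 at 3.08, and red lines mark the 6 that passed.

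To set levels of different genes side by side, each mean was divided by the gene's merged exon length in the basic GENCODE M21 annotation, which need not be the annotation the authors counted on. Nlgn2 was the most abundant per kilobase of exon in both groups, at 216 normalized reads per kilobase in induced cells and 156 in uninduced cells. In induced cells Shank3 (64.0), Dlg4 (44.6), Nrxn2 (27.6), Shank1 (14.9), Shank2 (10.6), Nlgn3 (7.11), Nrxn3 (2.11) and Nlgn1 (0.706) followed. In uninduced cells the order was the same except that Nlgn3 (7.03) stood above Shank2 (3.56). Without a spread per gene, neighbours in this order cannot be told apart by a test.

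Summed over the neuroligin genes, Nlgn2 made up 96.5% of the reads per kilobase in induced cells and 95.7% in uninduced cells. Nlgn1 made up 0.316% in induced cells and 0.0278% in uninduced cells. Among the Shank genes, Shank2 held 11.8% of the reads per kilobase in induced cells, against 5.28% in uninduced cells, and Shank3 held 71.5% in induced cells, against 78.1% in uninduced cells. These shares describe group means and were not tested. The RNA is from a mixed population, so more cells with a transcript and more transcript per cell cannot be told apart.

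Reads of some genes could be shared with overlapping transcripts. In the GENCODE M21 basic set 44.6% of the Nlgn3 exon bases lie in a transcript of the same strand, Gm21986, and such reads can be dropped by a counter as ambiguous. Exons on the opposite strand overlap 10.4% of Nlgn1, 9.16% of Nrxn2, 4.65% of Nrxn3, 3.55% of Shank3 and 3.45% of Shank1, and the sources used here do not say whether counting used strand. Nlgn2, Dlg4 and Shank2 had no exon overlap with another gene. Reads per kilobase were taken over the whole exon length, so dropped reads would make Nlgn3 appear lower and the Nlgn2 share higher. The part of such overlaps in the changes, in the reads per kilobase and in the shares was not tested.

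Neurexins also bind ligands other than neuroligins, among them the LRRTM proteins, cerebellins, calsyntenins, neurexophilins and latrophilins. A list of 25 tested genes holds such ligands and also partners of neuroligins such as Mdga1. Of these 25 genes 9 rose and 5 fell. The 16 with a mean of 10 or more had a median log2 change of 0.51 (0.93 with no minimum mean). Mdga1, whose product binds neuroligins and blocks their contact with neurexins, rose 11.6-fold, with means of 941 in induced and 80.9 in uninduced cells in the authors' deposited table (DESeq adjusted p = 2.3e-123). Igsf21, a neurexin ligand of inhibitory synapses, rose 5.52-fold and the calsyntenin gene Clstn2 7.37-fold in the authors' deposited table. Clstn3, another calsyntenin, fell with a fold of 0.525 in the same table (481 in induced and 917 in uninduced cells). Chosen after their values were seen, Lrrtm1 and Lrrtm3, ligands that compete with neuroligins, rose to 27.8 and 14.9 normalized reads in induced cells, against 1.00 and 0.537 in uninduced cells, in the authors' deposited table. Also chosen afterwards, Dag1, the dystroglycan gene, and Clstn1 fell, with folds of 0.737 and 0.718 in the authors' deposited table. The means of Dag1 and Clstn1 were 4284 and 3342 in induced cells, against 5810 and 4656 in uninduced cells, and the list's median was -0.19 where a mean of 50 or more was required.

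Among synaptic adhesion genes outside the neurexin bridge 18 of 30 tested rose and 3 fell (median log2 change 1.17). At a minimum mean of 50 the median was 0.50, and 8 rose and 1 fell after re-adjustment at that mean. Ntng2, encoding a netrin-G that binds a postsynaptic ligand, rose, with means of 78.5 in induced and 1.39 in uninduced cells in the authors' deposited table (DESeq adjusted p = 7.2e-20). Cadm3, a synaptic immunoglobulin adhesion gene, rose 10.8-fold, and the postsynaptic adhesion genes Elfn1 and Slitrk5 had rises of 6.23-fold and 2.96-fold by the authors' deposited table. Chosen after their values were seen, the 3 that fell were Slitrk3, Slitrk4 and Ptprf. Their folds were 0.172, 0.392 and 0.736 in the authors' deposited table.

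On the presynaptic side the neurexin tail is bound by CASK and Mint proteins. Of 12 such scaffold genes 4 rose and 1 fell (median log2 change 0.27, and 0.42 with no minimum mean). Apba2, which encodes Mint2, rose 8.07-fold (505 in induced and 62.6 in uninduced cells), Cask 1.83-fold and Sdcbp, encoding syntenin, 1.70-fold in the authors' deposited table. Ppfia4, a liprin gene, was the gene that fell, with a fold of 0.733 in the authors' deposited table.

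Relatives of PSD-95 moved in both directions. Of 20 MAGUK and other PDZ scaffold genes 8 rose and 4 fell (median log2 change 0.15). Dlg3, encoding SAP102, rose 1.85-fold with means of 1282 in induced and 694 in uninduced cells (DESeq adjusted p = 2.0e-15), and Grip1, a binder of AMPA receptors, 2.21-fold in the authors' deposited table. Magi1, a scaffold of junctions as well as synapses, rose 1.47-fold in the authors' deposited table. Chosen after its values were seen, Dlg1, encoding SAP97, had means of 2459 in induced and 2828 in uninduced cells and fell with a fold of 0.870 (the authors' deposited table, adjusted p = 0.035).

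Among 28 other genes of the postsynaptic density 14 rose and 3 fell (median log2 change 0.31). Kalrn, an exchange factor of dendritic spines, rose 16.2-fold, with 2006 normalized reads in induced and 124 in uninduced cells in the authors' deposited table (DESeq adjusted p = 3.2e-146). Homer2, a binder of Shank proteins, rose 2.47-fold and the actin-binding gene Dbn1 1.99-fold in the authors' deposited table. Arc, an activity-regulated gene of the postsynapse, fell with a fold of 0.362 in the same table. Of the 7 inhibitory scaffold genes 2 rose and 1 fell (median log2 change 0.23, and 0.53 at a minimum mean of 50). Lhfpl4, a partner of GABA-A receptors and Nlgn2, rose 1.79-fold, whereas Magi2 fell with a fold of 0.596 in the authors' deposited table. Gephyrin (Gphn), the central inhibitory scaffold and chosen after its values were seen, had means of 218 in induced and 187 in uninduced cells and did not pass (adjusted p = 0.42, the authors' deposited table).

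Glutamate receptor genes whose products these scaffolds anchor numbered 16, of which 5 rose and 0 fell, and the 9 with a mean of 10 or more had a median log2 change of 0.62. At a minimum mean of 50 the median was 0.35, and 2 rose after re-adjustment at that mean. Gria2, an AMPA receptor subunit gene, had means of 57.3 in induced and 2.61 in uninduced cells (DESeq adjusted p = 8.4e-10), and Gria1 17.5 in induced and 2.47 in uninduced cells, in the authors' deposited table. The NMDA receptor subunit genes Grin2c and Grin3a rose to 94.1 and 23.2 normalized reads in induced cells, against 17.5 and 3.54 in uninduced cells, in the authors' deposited table. The other 11 genes did not pass, among them Gria3 and the NMDA receptor subunit gene Grin1, both chosen after their values were seen. Gria3 had means of 243 in induced and 190 in uninduced cells (DESeq adjusted p = 0.22, the authors' deposited table). Grin1 had 63.1 in induced and 76.8 in uninduced cells (adjusted p = 0.52, the same table).

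**Figure D3:**
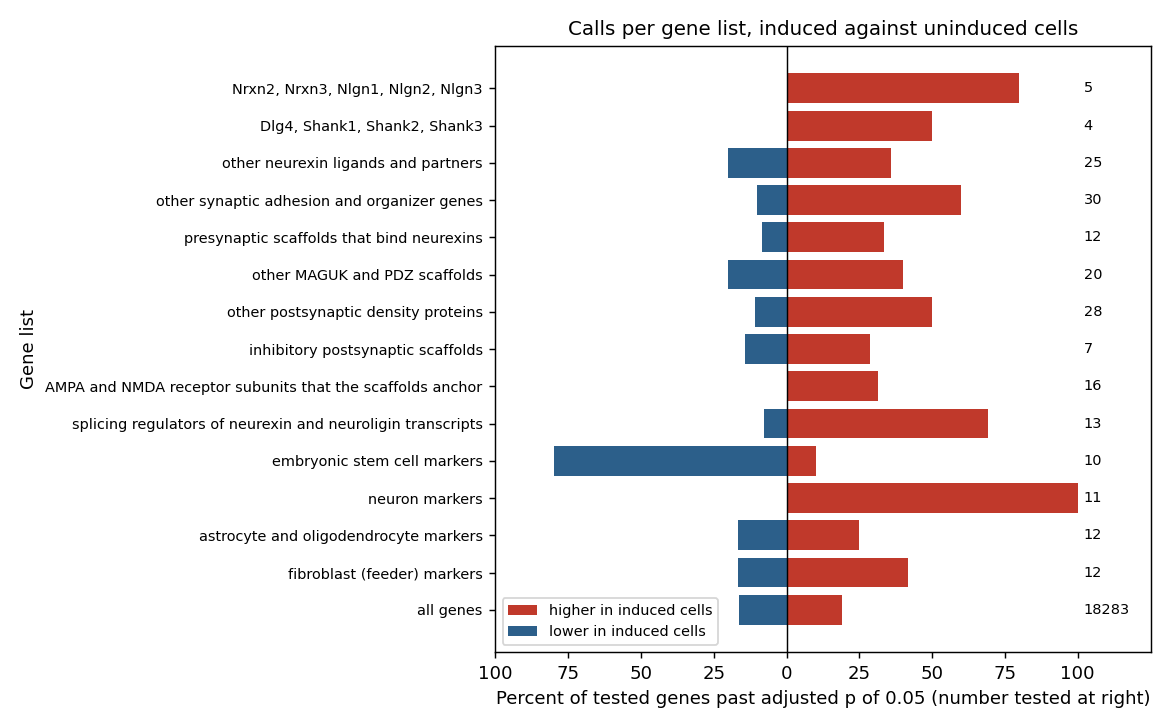
Bars give the percent of each list's tested genes that rose (red, to the right) or fell (blue, to the left) at an adjusted p of 0.05, with the number tested at the right edge. The neurexin and neuroligin genes (4 of 5) and the scaffold genes (2 of 4) stand at the top, and all genes, at 19.1% up and 16.4% down, at the bottom.

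Taking the pathway and splicing lists without the 9 genes, 150 genes in all, 69 of 149 tested rose and 17 fell (median log2 change 0.48). The lists were chosen with earlier results of these data known, and nothing particular to them is read from these counts. Some genes, such as Magi2, stand in more than 1 list.

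Nlgn2 and Dlg4 lie near each other on chromosome 11, with 19 protein-coding genes between them in RefSeq order. All 19 had a p-value, of which 5 rose, 4 fell and 10 did not pass (median log2 change 0.16). Next to Dlg4, the lipid oxidation gene Acadvl rose (455 in induced and 270 in uninduced cells) in the authors' deposited table, and Plscr3, near Nlgn2, rose as well (433 in induced and 222 in uninduced cells). The steepest fall of the stretch was that of the tight junction gene Cldn7, to 105 in induced cells against 882 in uninduced cells in the authors' deposited table. These 3 genes were chosen after their values were seen.

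**Figure D4:**
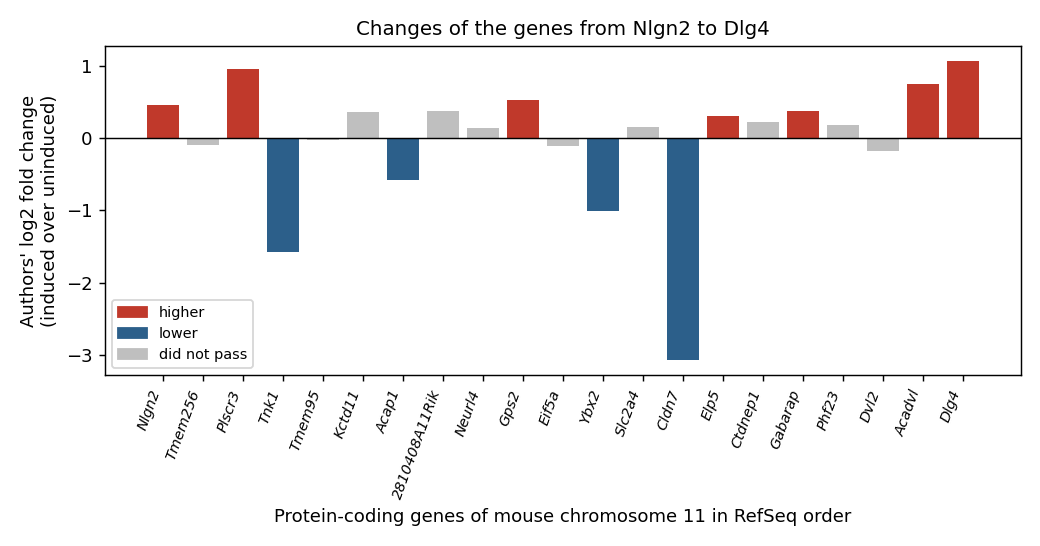
Bars give the authors' log2 fold change for Nlgn2, Dlg4 and the 19 protein-coding genes between them on chromosome 11, in gene order. Red bars rose, blue bars fell and grey bars did not pass; Nlgn2 (0.47) and Dlg4 (1.07) stand at the ends, with genes of either direction between them.

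By distance over the log2 values of the 2 group means, the tested genes most like Nrxn2 were Osbpl5 (257 in induced and 151 in uninduced cells) and Ggt7 (253 in induced and 148 in uninduced cells). Nearest to Nlgn2 were D5Ertd579e (1256 in induced and 893 in uninduced cells) and Chmp5 (1236 in induced and 912 in uninduced cells). Nearest to Dlg4 were Grasp (537 in induced and 250 in uninduced cells) and Mxra7 (532 in induced and 261 in uninduced cells). All distances were at most 0.0371 on the log2 scale, over 2 points only.

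Markers were read beside these changes. Neurod1 itself had means of 4371 in induced and 438 in uninduced cells in the authors' deposited table, transgene and endogenous reads together. Of 10 embryonic stem cell markers 8 fell and 1 rose, and their means summed to 39944 in induced and 59892 in uninduced cells, with none of them listed at 0 in either group. In the authors' deposited table Esrrb and Tfcp2l1, pluripotency factor genes, fell with folds of 0.457 and 0.357. All 11 neuron markers rose, with a summed mean of 23402 in induced and 6019 in uninduced cells, among them the beta-tubulin gene Tubb3 (10149 in induced and 845 in uninduced cells in the authors' deposited table). Astrocyte and oligodendrocyte markers numbered 12, of which 3 rose and 2 fell, with sums of 13623 in induced and 13618 in uninduced cells, and S100b was listed at 0 in uninduced cells. These near-equal sums hold changes in both directions. The glutamate transporter gene Slc1a2 rose 97.1-fold, with means of 2089 in induced and 21.5 in uninduced cells, in the authors' deposited table. The connexin gene Gja1, the largest part of both sums, fell to 9884 in induced cells against 11712 in uninduced cells, and Slc1a3, another glutamate transporter gene, to 658 in induced cells against 1233 in uninduced cells, in the authors' deposited table. The myelin genes Mbp and Cnp rose 2.44-fold and 1.62-fold by the same table. Of 12 fibroblast markers, standing for feeder cells, 5 rose and 2 fell, with sums of 6248 in induced and 3618 in uninduced cells, and Fap was listed at 0 in uninduced cells. The smooth muscle actin gene Acta2, the largest part of the rise, had means of 2702 in induced and 904 in uninduced cells, and Thy1 fell to 56.9 in induced cells against 151 in uninduced cells, in the authors' deposited table. The part of glial or fibroblast cells in the changes of the 9 genes was not tested.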

How the data were processed

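RNA was sequenced from 2 induced and 2 uninduced libraries, and the 2 NeuroD1 immunoprecipitation samples and 1 input sample were not analysed here. Per the submitters' processing notes the RNA libraries were processed for mouse build mm9 with DESeq, HTSeq 0.5.4p1, SAMtools 0.1.19, TopHat2 2.0.8 and FastQC 2.6.14, and no role or order is stated. The authors' deposited table gives, per gene, 2 group means of normalized read counts (a signal that is never negative), their ratio as a fold change (induced over uninduced, equal to the quotient of the means for 100% of genes with both means above 0, at a relative tolerance of 1e-06), its log2 value, and p-values. The deposited adjusted p-values equalled a Benjamini-Hochberg adjustment over the 18283 genes with a p-value, at the same relative tolerance, for 100% of them. Another 4 columns of values per library bear names that match no sample label and were not used, so no limma fit, paired fit or test without single libraries was run and no spread is given. The threshold was an adjusted p of 0.05.

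Computed here were log2 changes with a pseudocount of 1 (folds of low genes are understated on that scale), list counts and medians (medians over genes with a mean of 10 or more), reads per kilobase, gene order and E-box matches. The 14 gene lists hold 207 symbols, of which 206 were matched, 7 of them through older symbols in RefSeq. The genes described and the lists were chosen with earlier results of these data known. Genes named besides these 9 are Neurod1, up to 4 genes of lowest adjusted p in each list (some are not reported here), and the 2 genes nearest to the member of each role (neurexin, neuroligin, scaffold) with the smallest adjusted p, and others are said to be chosen afterwards, apart from Gja1 and the markers listed at 0 (S100b and Fap), which were also chosen after their values were seen. The adjustment and call steps were tested on simulated data. The software was matplotlib 3.10.9, scipy 1.17.1, numpy 2.4.6 and pandas 2.3.3 under Python 3.11.15. Alternatives are a threshold of 0.01, a 2-fold minimum, re-adjustment at a mean of 10 or 50, other scalings, pseudocounts of 0.5 and 5, and other minimum means.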

Additional observations from a re-analysis of the deposited data

How the results depend on the processing

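No paired analysis was possible because the columns of single-library values match no sample label, and fits without single libraries and the limma fit were not run for the same reason. For the 9 genes, a threshold, re-adjustment, a fold minimum or a pseudocount cannot reverse the direction of a change. The other scalings shifted every log2 change by less than the smallest of the 9, 0.018 for Nlgn3, so direction was not tested. The calls that were lost were Nlgn1 (log2 change 3.96) at a threshold of 0.01, and Nrxn2 (0.75) and Nlgn2 (0.47) when a change of at least 2-fold was asked. The count of the 9 genes that rose was 6 as reported, 5 at the threshold of 0.01, 5 after re-adjustment over genes with a mean of at least 10, which leaves Nlgn1 out, 4 at a mean of at least 50, which also leaves Nrxn3 out, and 4 at 2-fold. Of the 18283 genes with a p-value 2856 rose and 2365 fell at the threshold of 0.01. Re-adjustment at a mean of 10 gave 3549 higher and 3087 lower of 14388 genes. Re-adjustment at a mean of 50 gave 3176 higher and 2865 lower. The number of genes at that mean was not counted, so no share over all genes stands beside the 4 found there. Under the 2-fold minimum 1367 of the 18283 genes rose and 767 fell, against 3499 and 3000 as reported. In the pooled pathway lists 39 rose and 3 fell at 2-fold, against 69 and 17. The median of the other neurexin ligands and partners was -0.19 at a minimum mean of 50, against 0.51. With the 2-fold minimum 1 MAGUK and PDZ scaffold gene, 1 presynaptic scaffold gene, 5 other postsynaptic density genes and 1 inhibitory scaffold gene rose, and the counts that fell were 0, 0, 1 and 0 in that order. Equal totals moved every log2 change by -0.0046 and setting the median to 0 by -0.0018. Low genes such as Nlgn1 and Nrxn3 are limited by their few reads, and no library's spread could be set beside any mean.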

Other observations

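RNA-binding proteins that control the alternative exons of neurexin and neuroligin transcripts form a further group. Of 13 such genes 9 rose and 1 fell, and the 12 with a mean of 10 or more had a median log2 change of 0.87. Srrm4, a neuronal microexon regulator, rose 32.9-fold, with means of 2319 in induced and 70.4 in uninduced cells in the authors' deposited table. Nova2 rose 3.43-fold, Rbfox3 4.88-fold and Ptbp2, the neural relative of Ptbp1, 1.76-fold in the authors' deposited table. Of the STAR-family genes Khdrbs1 and Khdrbs3, which encode Sam68 and SLM2 and were chosen after their values were seen, the means were 5982 and 738 in induced cells, against 3732 and 502 in uninduced cells, in the authors' deposited table, and both rose (DESeq adjusted p = 1.5e-18 and 6.9e-06). Gene-level values do not show which exons were used.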
